A study of Mus musculus with 18 samples.

Results

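The Dickkopf WNT antagonists Dkk1, Dkk2, Dkk3 and Dkk4 and the Dickkopf co-receptor Kremen1 were followed through 18 Affymetrix arrays of mouse palate. These 5 genes have Entrez IDs 13380, 56811, 50781, 234130 and 84035, in the order Dkk1 to Dkk4 and Kremen1. They were chosen by name, with earlier results of these data known. Their probe sets are all those to which the platform annotation gives 1 of these symbols, which made 9 of the 45037 probe sets tested. Where 1 probe set stands for a gene, it is the brightest over all arrays, as for all 18193 genes tested. RNA came from C57BL/6J embryos at embryonic day 15.5, in 3 groups of 6 samples by the titles: posterior palate of K14-Cre;Tgfbr2 fl/fl mutants, posterior palate of Tgfbr2 fl/fl controls, and anterior palate of Tgfbr2 fl/fl controls. All animals carried the floxed Tgfbr2 allele, and only the mutants also carried Cre, driven by the promoter of keratin 14, which is active in epithelial cells. Tgfbr2 was thus targeted in epithelium while the arrays measured whole palate tissue. The design text gives 5 samples a group where the titles list 6. It places mutants and controls in separate litters, so litter and genotype cannot be told apart. Sex was not determined, and nothing says whether embryos were pooled; the p-values reflect only how far these samples scatter. The question put to the mutants was what faulty TGF-beta signalling in palatal epithelium does to its exchange with muscle fibres.

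Dickkopf proteins are secreted. WNT ligands that act through beta-catenin bring a frizzled receptor together with the co-receptor Lrp5 or Lrp6, and Dkk1 blocks this by binding the co-receptor, an effect strengthened by Kremen proteins, which bind Dkk1 at the cell surface and help remove Lrp6 from it. Dkk4 acts much like Dkk1 and is known from ectodermal placodes such as those of hair and teeth. Dkk2 can inhibit or activate depending on the Kremen level, and Dkk3 is the most divergent member, with no settled role at Lrp6. Dkk1 is known from craniofacial mesenchyme and from bone cells, where it limits bone formation.

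The targeted gene Tgfbr2 read between 10.6 and 11.4 on the log2 scale in mutant posterior arrays, against 10.2 to 10.7 in control posterior arrays, and was higher in the mutants by 0.55 (SE 0.13, adjusted p = 0.00879, limma). Where its probes lie with respect to the deletion was not looked at, and whole tissue was measured, so this does not check the labels. Array medians lay between 5.77 and 5.90 in mutant posterior, 5.75 and 5.79 in control posterior and 5.73 and 5.76 in control anterior arrays. Labelling spike-in controls averaged 7.18 to 8.84 on mutant arrays, against 9.35 to 11.004 on control posterior and 9.32 to 11.3 on control anterior arrays, so labelling and genotype cannot be told apart. Hybridisation spike-ins parted arrays 1 to 3 (11.1 to 11.7) from arrays 4 to 6 (10.4 to 10.5) in the mutants and, by less, in the controls (10.2 to 10.3 and 10.6 to 10.7 in posterior, 10.3 and 10.7 to 10.9 in anterior arrays). The labels do not name these sets. Mutant array 1 stood apart in epithelial markers, with a mean over 16 basal and simple epithelial genes of 8.93. The other mutant arrays had 10.6 to 11.6 and control posterior arrays 10.9 to 11.3. The same array had the lowest labelling spike-in mean, 7.18.

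Dkk4 and Dkk1 were the 2 of 5 genes that rose in mutant posterior palate, and none fell, where 13.5% of all 18193 genes passed in either direction and 7.73% were higher (57.5% of calls, or 40.5% with each array centred on its median). Dkk4 was 5.60-fold and Dkk1 2.41-fold higher. Dkk3, Dkk2 and Kremen1 had positive differences that did not pass the test at the level of the gene. Exact permutation tests of these genes, unadjusted and 2-sided, gave p = 0.02165 for Dkk3, 0.0433 for Dkk2 and 0.903 for Kremen1. The plot of values by array shows that the mutant arrays also lay farther apart than the control posterior arrays for all 5 genes.

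**Figure D1:**
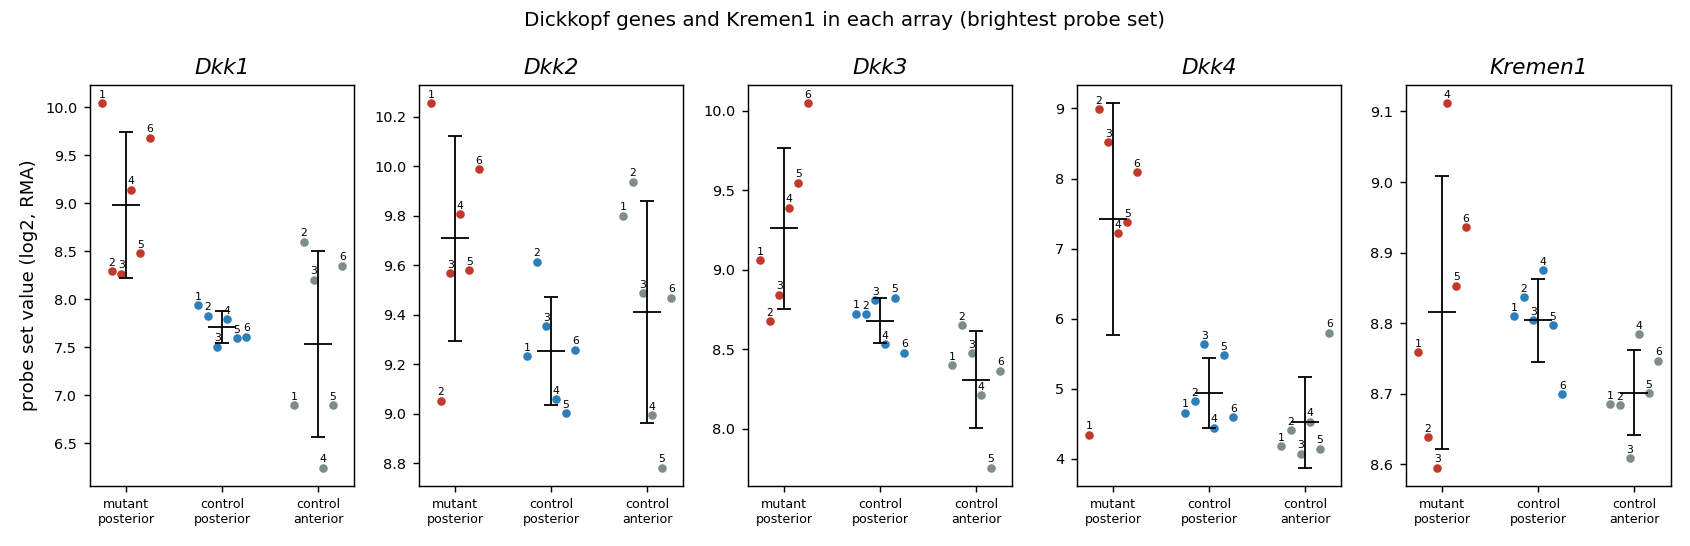
Brightest probe set of each gene (log2, RMA; each panel has its own vertical axis) in mutant posterior, control posterior and control anterior arrays; points are arrays with their numbers, and the bar with whiskers is the mean ± SD (n = 6 each). Mutant array 1 is the highest array for Dkk1 and, at 4.34, lies below every control posterior array for Dkk4.

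Dkk4, a secreted inhibitor of WNT signalling through beta-catenin, had 1 probe set. Its lowest, median and highest values were 4.34, 7.74 and 8.99 in mutant posterior arrays, against 4.44, 4.74 and 5.64 in control posterior arrays. In mutant arrays 2 to 6 it read 8.99, 8.52, 7.22, 7.38 and 8.09, each above every control posterior array, while mutant array 1 lay below all of them. Dkk4 averaged 7.42 ± 1.65 in mutant and 4.94 ± 0.50 in control posterior palate (SD, n = 6 each). The mutants were higher by 2.49 on the log2 scale (SE 0.56, 95% interval 1.30 to 3.67, adjusted p = 0.00798, limma). This fit takes 1 spread per gene over the 3 groups, though the SDs differ. With the compared groups only the SE was 0.63 (adjusted p = 0.0295, limma). An exact permutation test of this difference over the 12 arrays gave an unadjusted 2-sided p = 0.0152, where the smallest possible is 0.00216. Without mutant array 1 the difference was 3.10 (adjusted p = 3.84e-05, limma).

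The level of Dkk4 in control posterior arrays lay under the array medians, so background may enter and the fold change is that of the measured signal. With the 4 sets of arrays (arrays 1 to 3 and 4 to 6 of each genotype) as a random block, the same difference was not called (adjusted p = 0.0991, limma). It was called with mutant arrays 1 to 3 only (2.35, adjusted p = 0.0303) and with mutant arrays 4 to 6 only (2.63, adjusted p = 0.000306). With control posterior arrays 1 to 3 only it was not called (2.38, adjusted p = 0.141), and with control posterior arrays 4 to 6 only it was (2.59, adjusted p = 0.0449).

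Dkk1, which binds Lrp5 and Lrp6 and Kremen proteins, had 2 probe sets. In the brighter the lowest, median and highest values were 8.27, 8.81 and 10.04 in mutant posterior arrays, against 7.51, 7.70 and 7.94 in control posterior arrays, so the groups did not overlap; this held for 6.55% of genes in either direction and 3.52% with the mutants above. The highest mutant values were 10.04 in array 1 and 9.68 in array 6, and arrays 2 and 3 (8.29 and 8.27) lay closest to the controls. Dkk1 averaged 8.98 ± 0.76 in mutant and 7.71 ± 0.17 in control posterior palate (SD, n = 6 each), so that it was higher by 1.27 on the log2 scale (SE 0.38, 95% interval 0.47 to 2.07, adjusted p = 0.0346, limma).

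The exact permutation test of Dkk1 gave 2-sided p = 0.00216, the smallest that 6 against 6 arrays allow. The other probe set read 5.46, 6.37 and 7.82 (lowest, median, highest) in mutant arrays, against 5.04, 5.24 and 5.53 in control posterior arrays. These control posterior values lie under the array medians, where background may enter. The dimmer probe set differed by 1.23 (SE 0.43) and was not called when each of the 45037 probe sets was tested (adjusted p = 0.0769, limma). Across the 18 arrays the probe sets of Dkk1 followed each other (Pearson r = 0.974). The call of the brighter was lost with the 4 sets as a random block (adjusted p = 0.209, limma), and in 8 of 18 fits that left out 1 array: mutant array 1, 4 or 6, or control posterior array 2, 3, 4, 5 or 6 (adjusted p = 0.0545 to 0.0749, limma). Without mutant array 1 the difference was 1.06. It was not called with mutant arrays 1 to 3 only (1.16, adjusted p = 0.0905), nor with control posterior arrays 1 to 3 only (1.23, adjusted p = 0.280) or 4 to 6 only (1.32, adjusted p = 0.123), and it was called with mutant arrays 4 to 6 only (1.39, adjusted p = 0.0369).

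The RefSeq promoter table (GRCm38.p6) held windows for 2 of the 5 genes, Dkk1 and Dkk2, and both are shown. It held none for Dkk4, Dkk3 or Kremen1, so their promoters were not searched. Each window runs from 250 bases before to 50 bases after the gene's start, 5′ to 3′ on the gene's strand. Capitals mark matches to CTTTGAT or CTTTGTT, which LEF and TCF factors, the nuclear partners of beta-catenin, are known to bind, or to CAGACA, a SMAD motif, searched on both strands. The Dkk1 window lies on the minus strand at chr19:30549447-30549746 and the Dkk2 window on the plus strand at chr3:132085042-132085341.
Dkk1: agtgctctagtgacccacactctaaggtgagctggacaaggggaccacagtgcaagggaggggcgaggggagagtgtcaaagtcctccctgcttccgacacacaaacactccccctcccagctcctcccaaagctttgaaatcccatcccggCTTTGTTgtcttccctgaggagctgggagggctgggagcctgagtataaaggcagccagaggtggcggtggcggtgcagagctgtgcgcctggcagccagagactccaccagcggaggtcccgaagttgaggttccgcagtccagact
Dkk2: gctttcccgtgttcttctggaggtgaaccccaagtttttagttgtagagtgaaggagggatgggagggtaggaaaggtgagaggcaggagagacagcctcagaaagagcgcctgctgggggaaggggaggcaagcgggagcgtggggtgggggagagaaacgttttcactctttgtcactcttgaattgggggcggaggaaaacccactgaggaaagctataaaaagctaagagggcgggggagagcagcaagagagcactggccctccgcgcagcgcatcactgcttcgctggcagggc
The Dkk1 window held 1 match, CTTTGTT on the gene's own strand starting 98 bases before the start, and the Dkk2 window held none of the motifs. Among 27025 promoter windows of this length 5.79% held CTTTGTT, 3.72% held CTTTGAT, 9.28% held either of these, and 21.0% held CAGACA. A match is a description of the letters and not of a factor at work there.

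Dkk2, which can inhibit or activate at Lrp6, had 1 probe set, with 9.05, 9.69 and 10.26 (lowest, median, highest) in mutant posterior arrays, against 9.004, 9.25 and 9.61 in control posterior arrays. Mutant arrays 1, 4 and 6 lay above every control posterior array, and mutant array 2 lay among the lowest controls. The log2 difference of 0.45 (SE 0.20, 95% interval 0.03 to 0.88) was not called (adjusted p = 0.148, limma). Without mutant array 2 it was 0.59 and was called (adjusted p = 0.0473, limma).

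Dkk3, the divergent member, had 2 probe sets. The brighter read 8.68, 9.23 and 10.05 (lowest, median, highest) in mutant posterior arrays, against 8.48, 8.72 and 8.82 in control posterior arrays. Mutant arrays 4, 5 and 6 read 9.39, 9.55 and 10.05, while arrays 1, 2 and 3 read 9.06, 8.68 and 8.84, nearer to the controls. The log2 difference of 0.58 (SE 0.19, 95% interval 0.18 to 0.98) just missed the threshold (adjusted p = 0.0505, limma). With mutant arrays 4 to 6 only it was 0.98 and was called (adjusted p = 0.00164), and with mutant arrays 1 to 3 only it was 0.18 (adjusted p = 0.422). The other probe set differed by 0.25 (95% interval -0.18 to 0.68, adjusted p = 0.488, limma over all probe sets).

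Kremen1, the membrane receptor for Dkk1, had 3 probe sets that differed in what they showed. The brightest read 8.60, 8.81 and 9.11 (lowest, median, highest) in mutant posterior arrays, against 8.70, 8.81 and 8.88 in control posterior arrays, with the controls inside the range of the mutants. Its log2 difference was 0.01 (SE 0.08, 95% interval -0.15 to 0.17, adjusted p = 0.938, limma), and it turned negative when each array was centred on its median (-0.04). A dimmer probe set read 5.22, 5.39 and 5.84 in mutant arrays, against 4.94, 5.10 and 5.29 in control posterior arrays, and was called at 0.35 (SE 0.10, adjusted p = 0.0298, limma over all probe sets). All its values lie under the array medians, where background may enter. The third differed by 0.06 (adjusted p = 0.779).

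Counted by probe set, 3 of 9 were called higher in the mutants, 1 each of Dkk4, Dkk1 and Kremen1, where 10.7% of all probe sets passed in either direction and 6.44% were higher. The plot of differences gives the 9 probe sets with their intervals in each comparison.

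**Figure D2:**
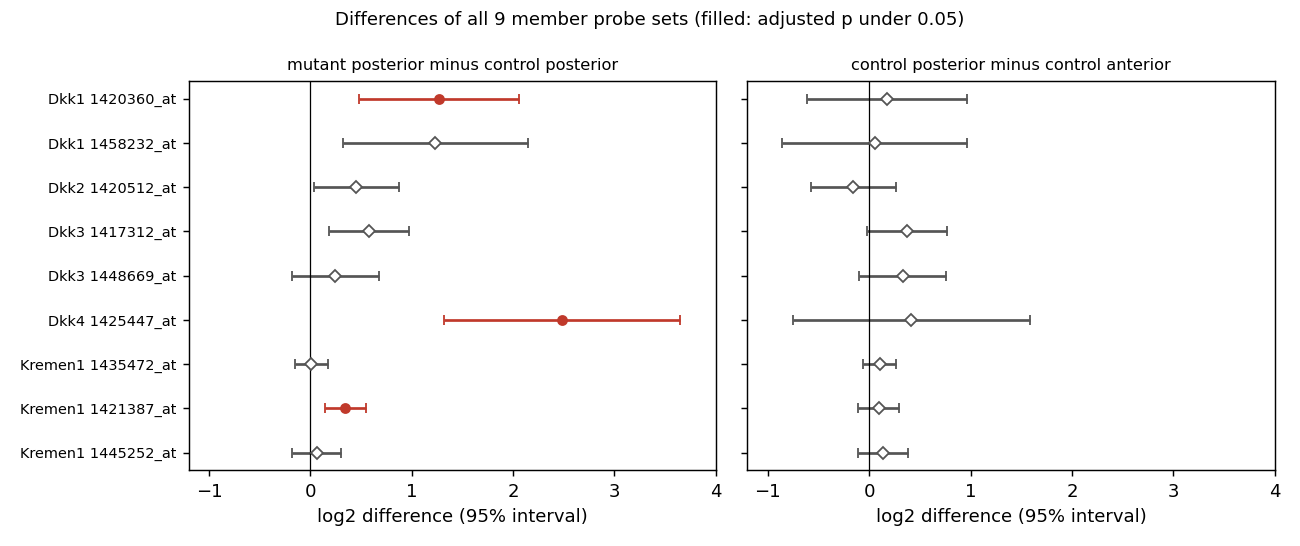
Log2 differences with 95% intervals for each of the 9 probe sets, for mutant posterior minus control posterior (left) and control posterior minus control anterior (right), from the fit over all 45037 probe sets; filled points have an adjusted p under 0.05. Filled points appear for Dkk4, for 1 of 2 Dkk1 probe sets and for 1 of 3 Kremen1 probe sets on the left, and for none on the right.

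Between posterior and anterior palate of controls, none of the 5 genes was called in limma's test, and none had an unadjusted p under 0.05, where 3.82% of all genes were called. This test did not pair arrays by number. Of the 9 probe sets none was called either, against 1.86% of all probe sets. Exact permutation tests, unadjusted and 2-sided, gave p = 0.013 for Dkk3 and p = 0.0152 for Kremen1, and 0.216 to 0.664 for the other three. These tests exchange arrays freely and leave out the array numbers. By number, Dkk3 was higher in the posterior array in 6 of 6 pairs (by 0.07 to 1.07) and Kremen1 in 5 of 6. With the number as a block over all 18 arrays neither was called (adjusted p = 0.347 and 0.438, limma). That fit holds the mutant arrays too, which came from separate litters by the design text, so it does not test the control pairs alone. Muscle moved with region: the mean of 18 skeletal muscle genes ran from 8.75 to 9.95 in posterior and from 5.40 to 7.34 in anterior arrays, 16 of 18 being higher. Its part in these values was not tested. Dkk4 differed by 0.42 (95% interval -0.77 to 1.60, adjusted p = 0.732). It read 4.44, 4.74 and 5.64 (lowest, median, highest) in control posterior arrays, against 4.07, 4.30 and 5.797 in control anterior arrays. The interval is wide enough to hold a difference of 2-fold or more in the posterior direction.

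Dkk1 differed by 0.18 between the regions (95% interval -0.62 to 0.98, adjusted p = 0.842, limma), with values far more scattered in anterior than in posterior palate. Control posterior arrays lay between 7.51 and 7.94 (SD 0.17), inside the span of the control anterior arrays, 6.25 to 8.60 (SD 0.97). Anterior arrays 2, 3 and 6 read 8.60, 8.20 and 8.35, above every control posterior array, and anterior arrays 1, 4 and 5 read 6.90, 6.25 and 6.90, below every one. The dimmer Dkk1 probe set parted the anterior arrays in the same way, at 6.51, 5.68 and 6.11 in arrays 2, 3 and 6 and 4.46, 4.06 and 4.50 in arrays 1, 4 and 5. The direction of the regional difference turned with the set: it was -0.14 (adjusted p = 0.872) within control arrays 1 to 3 and 0.50 (adjusted p = 0.589) within control arrays 4 to 6.

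Dkk3 read 8.48, 8.72 and 8.82 (lowest, median, highest) in control posterior arrays, against 7.76, 8.38 and 8.65 in control anterior arrays, with 4 of 6 posterior arrays above all anterior ones. The log2 difference of 0.37 (95% interval -0.03 to 0.77) was not called (adjusted p = 0.287, limma). With the sets of control arrays as a fixed block and mutants left out it was called at the same size (adjusted p = 0.0322), and within arrays 1 to 3 and 4 to 6 it was 0.24 and 0.50 (adjusted p = 0.216 and 0.168). Dkk2 differed by -0.16 (95% interval -0.58 to 0.27, adjusted p = 0.715), and Kremen1 by 0.10 (95% interval -0.06 to 0.26, adjusted p = 0.484), with 5 of 6 posterior arrays above all anterior arrays for Kremen1.

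Ordered by their mean, all 5 genes were highest in mutant posterior palate. For Dkk1, Dkk3, Dkk4 and Kremen1 control posterior came next and control anterior last; for Dkk2 the control anterior mean (9.41 ± 0.45) lay above the control posterior one (9.25 ± 0.22, SD, n = 6 each). Neighbours in this order differed in limma's test only for mutant posterior against control posterior in Dkk4 and Dkk1, while no other neighbouring pair was called. Between the ends of the order, the brighter Dkk3 probe set differed by 0.95 between mutant posterior and control anterior palate (adjusted p = 0.00157), with no overlap. The other Dkk3 probe set differed by 0.57, with overlap, and was not called (adjusted p = 0.0506, limma over all probe sets). Dkk4 differed by 2.90 (adjusted p = 0.00129) and Dkk1 by 1.45 (adjusted p = 0.00964), where 27.2% of all genes were called in that comparison and 13.9% were higher; groups lay apart for 9.83% of genes, and with the mutants above for 4.98%. The comparisons share arrays, so these values are not independent of those above.

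The spread between arrays was itself uneven, while limma's fit takes 1 spread per gene over the groups. All 9 probe sets had a larger SD in mutant posterior than in control posterior arrays, as did 84.8% of all genes. For Dkk1 the SD was 0.76 in mutant and 0.17 in control posterior arrays, and for Dkk4 1.65 and 0.50. The median SD over all genes was 0.23 in mutant and 0.13 in control posterior arrays.

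Dkk4 and Dkk1 varied differently within the mutants. Mutant array 1 had the lowest Dkk4 and the highest Dkk1, and mutant array 2 the highest Dkk4 and, with array 3, one of the lowest Dkk1 values. The deviations of the 2 genes from their group means had r = -0.339 over the 18 arrays. Mutant array 1, far from its group mean in both genes, weighs heavily in this r. No r without that array was computed. Dkk2 ran with Dkk1 (r = 0.692 for deviations over the same arrays). Arrays within a set and of like tissue content are not independent points, so r is given as a description.

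Dkk4 was set beside markers of epithelium, since mutant array 1, with Dkk4 at 4.34, had the lowest mean over the 16 measured basal and simple epithelial genes (8.93). The 5 mutant arrays with high Dkk4 had means of 10.6 to 11.6. Control posterior arrays had Dkk4 between 4.44 and 5.64 at list means of 10.9 to 11.3, and control anterior arrays between 4.07 and 5.797 at 11.1 to 11.7. Of these 16 genes none was higher and 1, Cldn6, was lower in the mutants, with a median difference of -0.43, where the median over all genes was 0.04. None of the 16 averaged under the array medians. The stratified epithelial list rose in part: 11 of 20 genes were higher in mutant posterior palate and none lower, and its mean ran from 7.72 to 9.48 in mutant and from 7.17 to 7.88 in control posterior arrays. Within the mutants it was lowest in arrays 1 and 4 (7.72 and 7.77), which had the lowest Dkk4, and highest in arrays 3 and 2 (9.48 and 9.32), which had the highest. Anterior arrays 5 and 3 had stratified means of 8.93 and 8.64 with Dkk4 at 4.14 and 4.07. Of 15 measured genes of placodes and dental epithelium none was called, and their mean ran from 6.75 to 6.96 in mutant and from 6.77 to 6.88 in control posterior arrays; the enamel genes Ambn, Amelx and Enam averaged under the array medians. Edar, Fgf20, Lef1, Shisa2, Sostdc1, Wnt10a and Wnt10b of that list stand in the WNT lists below too. The part of epithelial content in the Dkk4 difference was not tested. In whole tissue more cells of a type and more RNA per cell cannot be told apart, for any gene here.

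Dkk1 was set beside markers of bone, a known site of its expression. The mean over 7 measured osteoblast and osteocyte genes ran from 9.27 to 10.8 in mutant, from 8.79 to 9.38 in control posterior and from 7.64 to 9.18 in control anterior arrays. In mutant arrays 1, 6 and 4, with Dkk1 at 10.04, 9.68 and 9.14, the list mean was 10.7, 10.8 and 10.2; in mutant arrays 5, 2 and 3, with Dkk1 at 8.48, 8.29 and 8.27, it was 9.99, 9.27 and 9.52. Among control anterior arrays, array 4 had the lowest of both (6.25 and 7.64) and array 2 the highest of both (8.60 and 9.18), but array 3 had high Dkk1 (8.20) at a list mean of 7.95. Of the 7 genes 2 were higher in the mutants and none lower: Dmp1, an osteocyte matrix protein, by 2.54 and Phex, an osteocyte peptidase, by 2.24. The osteoblast factor Sp7 differed by 0.54 (adjusted p = 0.164) and bone sialoprotein Ibsp by 0.04 (adjusted p = 0.964). Only Mepe of the 7 averaged under the array medians. The part of bone content in the Dkk1 difference was not tested. Muscle genes ran from 8.69 to 11.35 in mutant and from 8.75 to 9.95 in control posterior arrays, with 17 of 18 differences positive, a median of 0.71 and 3 genes called higher (Myf6, Ckm and Ryr1). Of 16 palatal mesenchyme genes only Col1a2 was higher and none lower. Their mean read 9.81, 9.76 and 9.705 in mutant arrays 1 to 3 and 10.25, 10.40 and 10.63 in mutant arrays 4 to 6. In control posterior arrays it ran from 10.02 to 10.34. The part of muscle and of mesenchyme in the values of the 5 genes was not tested.

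**Figure D3:**
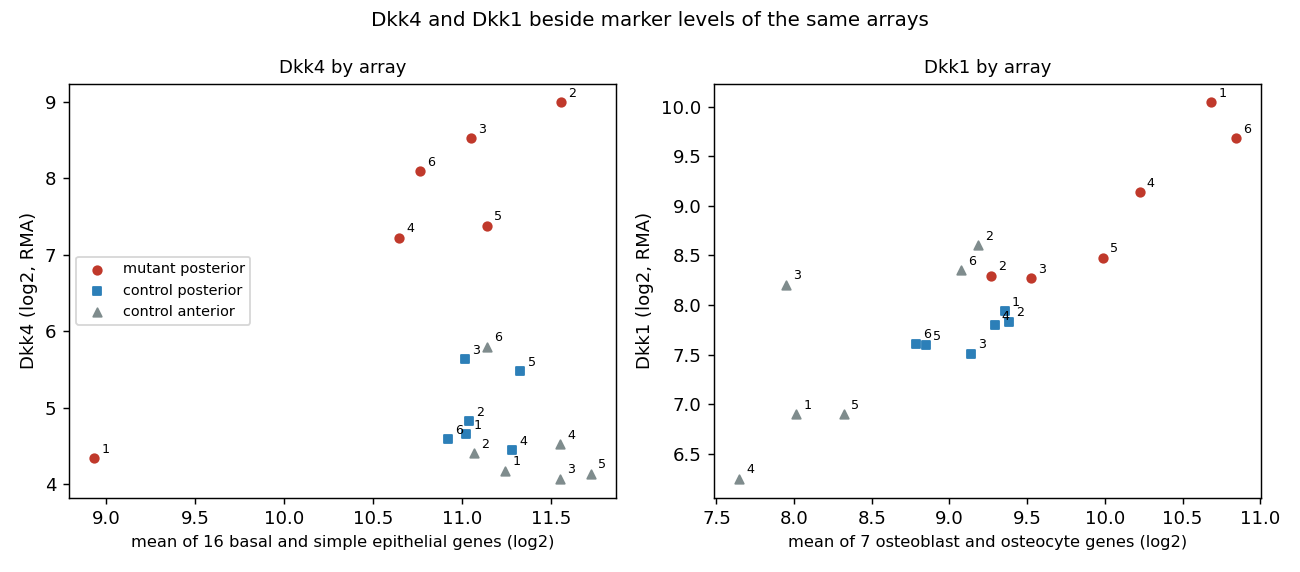
Left, Dkk4 against the mean of 16 basal and simple epithelial genes; right, Dkk1 against the mean of 7 osteoblast and osteocyte genes (all log2, 1 point per array, numbered, with mutant posterior as circles, control posterior as squares and control anterior as triangles). Mutant array 1 is the only array with an epithelial mean under 10, and mutant arrays 1 and 6 have both the highest Dkk1 and the highest bone means.

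Genes whose pattern over the 18 arrays was most like that of each member were sought by Pearson's r among 9097 genes with a mean at or above the median of the gene means. For Dkk1 these were Sdk2 (r = 0.896), Tpcn1 (0.896), Phex (0.878), Gxylt2 (0.876) and Spon1 (0.872), all called higher in mutant posterior palate, as was Dkk1; since group means entered r, the choice favours such genes. With group means removed Phex had the highest r of the 5 (0.844). For Dkk4 they were Camk1d (0.878), Cst3 (0.852), Mtmr10 (0.852), Pcyox1 (0.851) and Tspan5 (0.846), with 0.511 to 0.735 once group means were removed.

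Dkk3 had the closest match, the matrix protein gene Postn (r = 0.958, and 0.927 for deviations), followed by Tmem45a, Mmp16, Tmtc2 and Wwtr1. For Dkk2 the 5 were Bicc1 (0.917), Srgap2, Mras, Plpp3 and Gas1, and for Kremen1 they were Glt8d1 (0.830), Sec61a1, Frmd4b, Pdia4 and Tpt1. None of the genes matched to Dkk2 or to Kremen1 was called between mutant and control posterior palate. Each r describes arrays that share sets and tissue content.

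The other genes of the pathway were counted in lists by role. Of the 96 genes in these lists 8 were higher and 1 lower in mutant posterior palate, or 9.38% called. Over all genes 13.5% were called and 7.73% were higher. Of 19 other measured WNT inhibitors 1 was higher in mutant posterior palate and none lower, with a median difference of 0.12, where the median of all genes was 0.04. The 1 was Sost, which encodes sclerostin, an Lrp5 and Lrp6 antagonist known from osteocytes. It read 6.11 to 7.77 in mutant arrays, against 5.20 to 5.65 in control posterior arrays, a difference of 1.26 (SE 0.22, adjusted p = 0.00148, limma). All control posterior values of Sost lay under the array medians, where background may enter. The Dickkopf-like gene Dkkl1 averaged 5.31 ± 0.49 in mutant and 5.07 ± 0.31 in control posterior palate (SD, n = 6 each; adjusted p = 0.502), under the array medians.

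Of 19 co-receptors and frizzled or related receptors 3 were higher in the mutants and none lower (median 0.11). They were Fzd5 (0.74, adjusted p = 0.00696), Fzd9 (0.57, adjusted p = 0.0408) and Fzd4 (0.45, adjusted p = 0.0398), all WNT receptors. The Dickkopf target Lrp6 read 8.73 to 10.1 in mutant arrays, against 8.45 to 9.04 in control posterior arrays, a difference of 0.60 that was not called (adjusted p = 0.0763). Lrp5 differed by -0.13 (adjusted p = 0.641) at levels under the array medians, and Lrp4, the co-receptor that sclerostin also binds, by -0.05 (adjusted p = 0.841).

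Of 25 WNT ligands and secretion genes 1 was higher, the WNT-enhancing Rspo2 (0.64, adjusted p = 0.0468), and 1 was lower, Rspo4 (-0.35, adjusted p = 0.0274, at a level under the array medians), with a median of 0.03. Of 17 measured beta-catenin targets 2 were higher and none lower (median 0.10): Cd44 (0.70, adjusted p = 0.0231) and the feedback inhibitor Nkd1 (0.59, adjusted p = 0.00936), whose groups did not overlap. The target Axin2 averaged 8.03 ± 0.52 in mutant and 7.99 ± 0.17 in control posterior palate (SD, n = 6 each), a difference of 0.04 (SE 0.19, adjusted p = 0.909). Lef1 differed by 0.17 (adjusted p = 0.417). Among 17 genes of the destruction complex and of nuclear effectors 1 was higher, the kinase Gsk3b (0.32, adjusted p = 0.0135), and none lower (median 0.04).

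**Figure D4:**
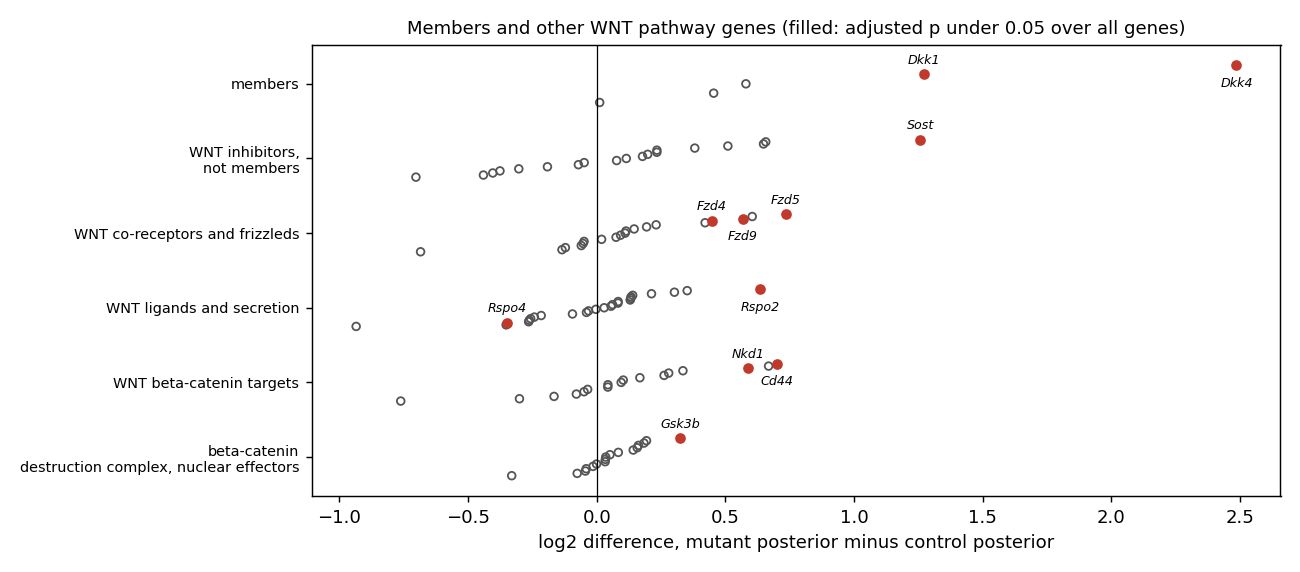
Log2 differences, mutant posterior minus control posterior, of the 5 Dickkopf and Kremen1 genes ("members") and of 5 lists of other WNT pathway genes; each point is a gene at its brightest probe set, spread vertically in order of its value, and filled points with names have an adjusted p under 0.05 over all genes. Dkk4 (2.49), Dkk1 (1.27) and Sost (1.26) are the differences above 1 among those drawn.

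Between the control regions 6 of the 96 genes in these lists were called, all lower in posterior palate, or 6.25%, where 3.82% of all genes were called. Among the other inhibitors Sostdc1, which antagonises WNT and BMP signals, was lower in posterior than in anterior palate (9.93 and 10.9, difference -0.97, adjusted p = 0.00493), and none was higher. Fzd5 (-0.62, adjusted p = 0.0413) and the WNT5A receptor Ror1 (-0.61, adjusted p = 0.0310) were lower among receptors, Sp8, at a level under the array medians in posterior palate (-2.09, adjusted p = 0.0139), among targets, and Pygo1, likewise at a level under the array medians (-0.36, adjusted p = 0.0240), and Tcf7l1 (-0.33, adjusted p = 0.0402) among effectors. Of the 17 effectors 1 had a positive difference and the median was -0.09, where that of all genes was -0.02. Their mean ran from 8.78 to 8.85 in posterior and from 8.90 to 9.04 in anterior arrays, with no overlap. Whether these means part after each array is centred on its median was not tested. That scaling moved the share of region calls that were higher from 44.5% to 71.2%. None of 25 ligands and secretion genes was called, the smallest adjusted p being that of Wnt11 (0.56, adjusted p = 0.0638).

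How the genotype calls hold under other settings is shown in the plot of adjusted p-values.

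**Figure D5:**
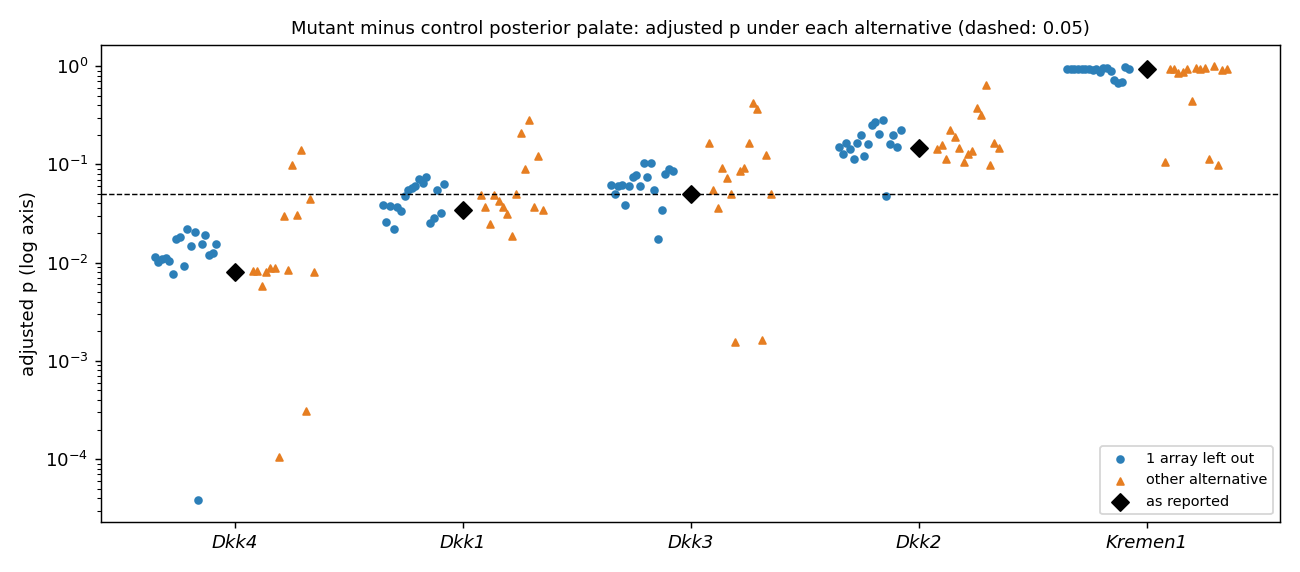
Adjusted p (log axis) of mutant posterior minus control posterior for each gene as reported (diamond), with 1 of 18 arrays left out (circles) and under 15 other alternatives (triangles); the dashed line is 0.05. Dkk4 lies above the line under 2 alternatives (0.0991 and 0.141), and Dkk1, Dkk2 and Dkk3 have values on both sides of it.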

How the data were processed

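RNA of 18 palate samples was hybridised to 1-colour Affymetrix arrays. The deposited values are log2 values that the authors made with RMA (background correction, quantile normalization, probe set summary). RMA is named, without a version, per the submitters' processing notes, and other upstream steps are not given in the sources used here. Detection calls were not used, and the number of arrays limits the precision. Values were used as deposited. Of 45101 probe sets 64 controls were left out, and 34945 had 1 symbol; the brightest stood for its gene. Differences were tested with limma 3.58.1 (R 4.3.3) in 1 fit of the 3 groups (15 residual degrees of freedom), 2-sided, with Benjamini-Hochberg adjustment over all 18193 genes, or over 45037 probe sets where stated, and called under 0.05. The fit was tested on simulated data with independent arrays and 1 spread per gene in all groups. That simulation held neither the uneven spread nor the sets of arrays seen here, so it does not test the fit under them. Exact permutation tests used scipy 1.17.1 and figures matplotlib 3.10.9.

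The 5 members, the gene lists and the alternatives were chosen with earlier results of these data known. Genes named besides the members are a fixed set of WNT and receptor genes, up to 3 called genes per list with the largest difference (otherwise the smallest p), and the 5 genes most like each member; markers named beside Dkk4 and Dkk1 (Cldn6, Dmp1, Phex, Sp7, Ibsp, Mepe, Ambn, Amelx, Enam, Myf6, Ckm, Ryr1, Col1a2) were chosen after their values were seen. Kremen2 was not analysed here.

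Deviations from group means of equally numbered arrays correlated at 0.111 to 0.430 across genes between the control regions (6 of 6 pairs above 0.1). Numbers were therefore taken to pair these arrays in the counts by number and in the replicate block. This comes from the data, not the labels. The region test as reported did not use this pairing, and no fit paired the control arrays alone. Between mutant and control posterior arrays 2 of 6 pairs exceeded 0.1.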

Additional observations from a re-analysis of the deposited data

Results flagged for a closer look

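In 27 groups of 6 values (9 probe sets in 3 groups), 2 held an array far from the other 5 by Dixon's 95% criterion (the gap to the nearest array as a share of the group's range); chance alone marks about 1 in 20 such groups. Dkk4 read 5.797 in control anterior array 6, where the next highest anterior array read 4.53. The dimmest Kremen1 probe set read 4.85 in mutant posterior array 1, where the next highest mutant array read 4.46. Mutant array 1, with Dkk4 at 4.34 against 7.22 in the next lowest mutant array, came close to this limit (a gap of 0.620 of the range) without passing it.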

How the results depend on the processing

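Of 325 values of the 5 genes under alternatives, 300 stayed on the same side of the threshold, 15 lost and 10 gained a call. No called difference reversed, and 10 uncalled differences turned sign. The 325 include fits without arrays of the group outside a comparison, which leave its difference unchanged, and genes not called as reported. Among 33 genotype alternatives Dkk1 lost its call in 13 and Dkk4 in 2. For genotype, the Dkk1 difference lost its call with the 4 sets as a random block (1.27, adjusted p = 0.209) and with mutant arrays 1 to 3 only (1.16). It also lost it with control posterior arrays 1 to 3 or 4 to 6 only (1.23 and 1.32) and at a threshold of 0.01 (1.27). Leaving out single arrays gave 1.06 to 1.42, and the call was lost in 8 of these 18 fits. Dkk4 lost it with that block (2.49) and with control posterior arrays 1 to 3 only (2.38, adjusted p = 0.141). Dkk3 gained a call with dim genes left out (0.58), with trend and robust variance (0.58), with array weights (0.80), with mutant arrays 4 to 6 only (0.98) and without control anterior array 2 or 5 or mutant array 2 or 3 (0.42 to 0.70 over all single arrays). Dkk2 gained one without mutant array 2 (0.35 to 0.59). For region, Dkk3 gained a call with the control sets as a fixed block (0.37). The cause was not tested.

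With the replicate block Dkk4 (adjusted p = 0.00841) and Dkk1 (adjusted p = 0.0497) were still called, 2495 genes were called for genotype and 677 for region, and it changed no call of the 5 genes. Called genes for genotype numbered 2449 as reported, 1572 with the compared groups only, 588 with the sets as a random block, 4986 with mutant arrays 1 to 3 only, 261 and 1538 with control posterior arrays 1 to 3 or 4 to 6 only, 905 at 0.01, and 1512 to 2735 without single arrays (1592 and 1512 without control posterior array 4 or 5). For region the counts were 695 as reported, 3356 with array weights, 2151 with the compared groups only, 1322 with the random and 3118 with the fixed block, 323 with control arrays 4 to 6 only, 251 at 0.01, and 389 to 1213 without single arrays, with counts moved by control anterior array 1 or 3 (442 and 458), control posterior array 2, 4 or 6 (450, 437 and 389) and mutant array 1 (1213). With arrays centred on their medians 40.5% of genotype calls and 71.2% of region calls were higher, against 57.5% and 44.5% as reported; a further quantile normalization gave 45.4% and 55.2%. Dkk4 and Dkk1 remained called higher under both scalings. Levels near or under the array medians limit what can be read from Dkk4 in controls and from the dimmer probe sets of Dkk1 and Kremen1. The dimmer Dkk3 probe set lay above the array medians.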
